A study of Mus musculus with 6 samples.

Results

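The collagen chain genes are the genes that encode the α chains of collagens, and they were taken here as every row of the deposited table whose gene name reads Col, a type number, a and a chain number. The rule found 44 genes among the 25361 listed. They fall into 11 fibrillar chains, 9 chains of fibril-associated collagens with interrupted helices (FACIT), 6 basement membrane chains, 6 beaded filament chains, 3 short-chain network chains, 2 multiplexins, 4 transmembrane chains and 3 others. Hearts came from C57BL/6N male mice aged 12 weeks with the genotype WT. The samples are 3 libraries from hearts of mice given ISO+L-NAME, taken after 6 weeks of treatment, and 3 libraries from hearts of mice labelled as untreated controls. The control hearts were likewise collected after 6 weeks. L-NAME inhibits nitric oxide synthase, and the series title names the model HFpEF, a form of heart failure. Doses and routes: not given in the sources used here.

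Collagens are trimers of α chains wound around each other in a helix built on a repeat that begins with glycine. In the heart, types I and III make the interstitial fibres that fibroblasts lay down around muscle cells, type V sits inside those fibres, and FACIT chains such as type XIV bind to their surface. Type IV forms the sheet-like network of the basement membrane under endothelium and around muscle cells, and type VI forms beaded filaments between the fibres and the basement membrane.

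Messages were counted by sequencing their 3′ ends, so a count does not grow with the length of a gene. Libraries held 2354157 to 2637364 counts in ISO+L-NAME hearts and 2217974 to 2448484 in control hearts. Values are given as counts and as CPM, the counts brought to one common library size after TMM adjustment. A log2 change compares ISO+L-NAME with control, a positive one being higher in ISO+L-NAME hearts, and carries a standard error (SE). The adjusted p-values come from the quasi-likelihood test of edgeR, adjusted by Benjamini and Hochberg's method over the 8531 genes with enough counts to be tested, at a threshold of 0.05. The labels give numbered replicates and no batch, and do not say that each library is a separate animal, so the p-values measure the spread between these libraries. Values given for hearts are values of libraries, and n counts libraries. The heart markers Myh6, Tnnt2, Tnni3, Ryr2, Pln, Myl2, Myl3 and Actc1 had counts in each library. They summed to 40814 to 43354 CPM in ISO+L-NAME hearts and 46514 to 47180 CPM in control hearts. Single markers went both ways: 2 of the 8 were called higher in ISO+L-NAME hearts (Ryr2 and Actc1), 3 lower (Myh6, Myl2 and Myl3) and 3 not called. Of all tested genes, 3.41% were called higher and 2.68% lower.

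Of 6 tested fibrillar chains, 4 were higher in ISO+L-NAME hearts, 1 was lower and 1 was not called. Col14a1 and Col8a1 were also higher. Of 3 tested basement membrane chains 0 were called, which is near the share of 6.10% called among all tested genes. Of the 44 chain genes, 36 had at least 1 count, and 16 passed the count filter. Of those 16, 6 rose (Col1a1, Col1a2, Col3a1, Col5a2, Col14a1 and Col8a1), 1 fell (Col5a3) and 9 were not called. Over all tested genes 3.41% rose and 2.68% fell, or 6.10% changed. The median log2 change of the 16 was 0.51, against -0.01 over all tested genes. Of the 16, 14 reached the filter's level in all 3 control libraries, and so did 6 of the 7 called genes. Col14a1 was the exception, at that level in 2 control libraries, so its passing owed part to the group in which it was high. Values of the groups did not overlap for 11 of the 16 genes, 8 with ISO+L-NAME higher and 3 lower, where 22.7% of all tested genes had no overlap (11.4% higher, 11.3% lower).

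**Figure D1:**
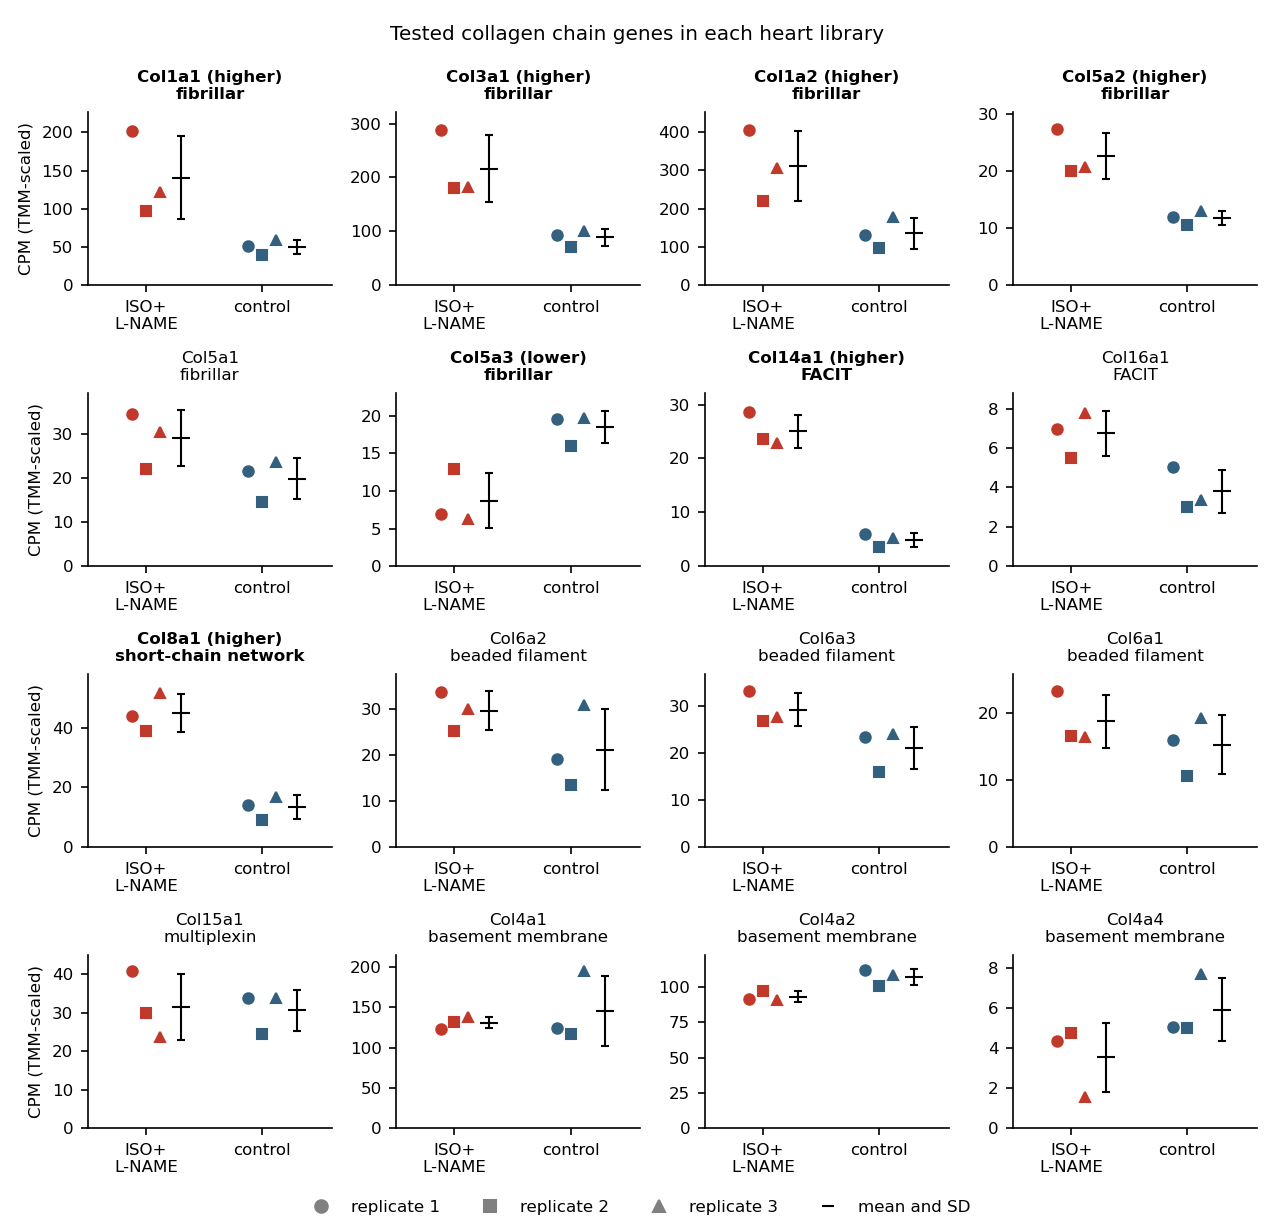
Level of each of the 16 tested collagen chain genes, in TMM-scaled CPM on an axis from 0, with 1 point per library (circle, square and triangle for replicates 1, 2 and 3) and the mean with its SD beside them, ISO+L-NAME in red on the left and control in blue on the right. Names in bold mark the 6 genes that rose and the 1 that fell; ISO+L-NAME 1 is the highest treated point in 10 panels and control 2 the lowest control point in 16.

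Single libraries stood out within each group. Control 2 had the lowest CPM of the 3 controls for all 16 tested chains, a position it held for 33.6% of all tested genes. ISO+L-NAME 1 was the highest treated library for 10 of the 16 and for 5 of the 6 that rose, against 33.3% of all tested genes. Without control 2 the same numbers of chains rose and fell, 6 and 1. Without ISO+L-NAME 1, 5 rose and 0 fell. In heart tissue, a change in the number of cells of a type and a change in RNA per cell cannot be told apart.

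Col1a1, Col1a2 and Col3a1, the main interstitial fibre chains, made up 63.0%, 51.1% and 55.7% of collagen counts in ISO+L-NAME libraries and 39.3%, 36.3% and 39.2% in control libraries. Col1a1, the α1 chain of type I collagen (ENSMUSG00000001506, GRCm39 chromosome 11, 94827050 to 94843868), had 608, 248 and 315 counts in ISO+L-NAME libraries and 113, 79 and 122 in control libraries. These are 202, 97.5 and 122 CPM in ISO+L-NAME hearts, against 51.6, 39.5 and 58.7 CPM in control hearts. Each treated library lay above each control, and ISO+L-NAME 1 was far above the other treated libraries. Col1a1 averaged 141 ± 54.6 CPM in ISO+L-NAME hearts and 49.9 ± 9.70 CPM in control hearts (SD, n = 3 each), a log2 change of 1.50 ± 0.21 (SE; edgeR adjusted p = 7.47e-05).

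Col1a2, which encodes the α2 chain of the same trimer (ENSMUSG00000029661, chromosome 6, 4504814 to 4541544), had 404, 221 and 307 CPM in ISO+L-NAME hearts, against 132, 96.6 and 178 CPM in control hearts. The groups did not overlap, though the lowest treated library and the highest control lay close. The log2 change was 1.20 ± 0.19 (edgeR adjusted p = 0.000274). A fit with robust dispersion estimates called neither type I chain (edgeR adjusted p = 0.0781 for Col1a1 and 0.148 for Col1a2).

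Col3a1, the single chain of the homotrimeric type III collagen of pliable tissues (ENSMUSG00000026043, chromosome 1, 45350698 to 45388866), had 287, 180 and 183 CPM in ISO+L-NAME hearts, against 94.0, 71.6 and 101 CPM in control hearts. Its lowest treated value was well above its highest control. Col3a1 rose by 1.29 ± 0.16 on the log2 scale (edgeR adjusted p = 3.43e-05). Col3a1, like Col14a1 and Col8a1 below, was called in each of the alternative fits.

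Type V collagen has a part in starting fibrils and limiting their width, and its chains moved in different ways. Col5a2 (ENSMUSG00000026042, chromosome 1, 45413481 to 45542442) had 27.2, 20.0 and 20.6 CPM in ISO+L-NAME hearts, against 11.9, 10.5 and 13 CPM in control hearts, and rose by 0.94 ± 0.22 (edgeR adjusted p = 0.00950). All treated libraries were above all controls, but the call was lost without ISO+L-NAME 1 (edgeR adjusted p = 0.0596). Col5a1 (ENSMUSG00000026837), its usual partner, had 34.5, 22.0 and 30.3 CPM in ISO+L-NAME hearts, against 21.4, 14.5 and 23.6 CPM in control hearts. The groups overlapped, and the log2 difference of 0.55 ± 0.21 was not called (edgeR adjusted p = 0.155).

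Col5a3 encodes another type V chain, with a narrower tissue range, and it was the one chain that fell. Col5a3 (ENSMUSG00000004098, chromosome 9, 20681346 to 20726363) had 21, 33 and 16 counts in ISO+L-NAME libraries and 43, 32 and 41 in control libraries. In scaled units it had 6.98, 13 and 6.21 CPM in ISO+L-NAME hearts, against 19.6, 16.0 and 19.7 CPM in control hearts. The groups did not overlap after scaling, although the raw count of ISO+L-NAME 2 was as large as that of control 2. The log2 change was -1.09 ± 0.26 (edgeR adjusted p = 0.0136), and the call was lost when control 1 was left out (edgeR adjusted p = 0.0650), and likewise for ISO+L-NAME 1 (0.0638) and ISO+L-NAME 3 (0.0661).

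The largest log2 changes among the tested chains were outside the fibrillar class. Col14a1, a FACIT chain that binds to fibril surfaces (ENSMUSG00000022371, chromosome 15, 55171146 to 55384199), had 86, 60 and 59 counts in ISO+L-NAME libraries and 13, 7 and 11 in control libraries. It averaged 25.0 ± 3.09 CPM in ISO+L-NAME hearts and 4.91 ± 1.26 CPM in control hearts (SD, n = 3 each). The 3 treated libraries were close together and several times above the highest control, with a log2 change of 2.33 ± 0.25 (edgeR adjusted p = 7.78e-06). The other tested FACIT chain, Col16a1, was not called, with 21, 14 and 20 counts in ISO+L-NAME libraries and 11, 6 and 7 in control libraries (log2 difference 0.81 ± 0.35, edgeR adjusted p = 0.214).

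Col8a1 encodes a short chain of the hexagonal network collagen of vessel walls and of Descemet's membrane in the eye (ENSMUSG00000068196, chromosome 16, 57444621 to 57575100). It had 43.9, 38.9 and 51.6 CPM in ISO+L-NAME hearts, against 14.1, 9.01 and 16.8 CPM in control hearts. Groups were well apart, with a log2 change of 1.74 ± 0.20 (edgeR adjusted p = 1.27e-05), and here ISO+L-NAME 3 rather than ISO+L-NAME 1 was the highest. Its partner chain Col8a2 was under the filter, with 13, 1 and 6 counts in ISO+L-NAME libraries and 0 in each control library. Taking 3 counts over the control group as the limit that 0 allows, Col8a2 was at least 5.14-fold higher in ISO+L-NAME hearts. The bound covers counting error in the controls only and takes the ISO+L-NAME counts as exact. ISO+L-NAME 1 held 13 of the 20 counts, and without it the bound was 2.86-fold. With control 1, 2 or 3 left out it was 3.34-fold, 3.50-fold or 3.44-fold. Those values follow from the smaller control total alone, as each control had 0 counts. A fit without the count filter called Col8a2 higher (edgeR adjusted p = 0.00187). The call rests on these same counts, most of them in ISO+L-NAME 1, so it adds no weight to the bound. Adjusted p-values of that fit are not on the scale of the main fit. There edgeR gave Col1a1 2.66e-24 and Col4a2 0.549, against 7.47e-05 and 0.381 in the main fit.

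**Figure D2:**
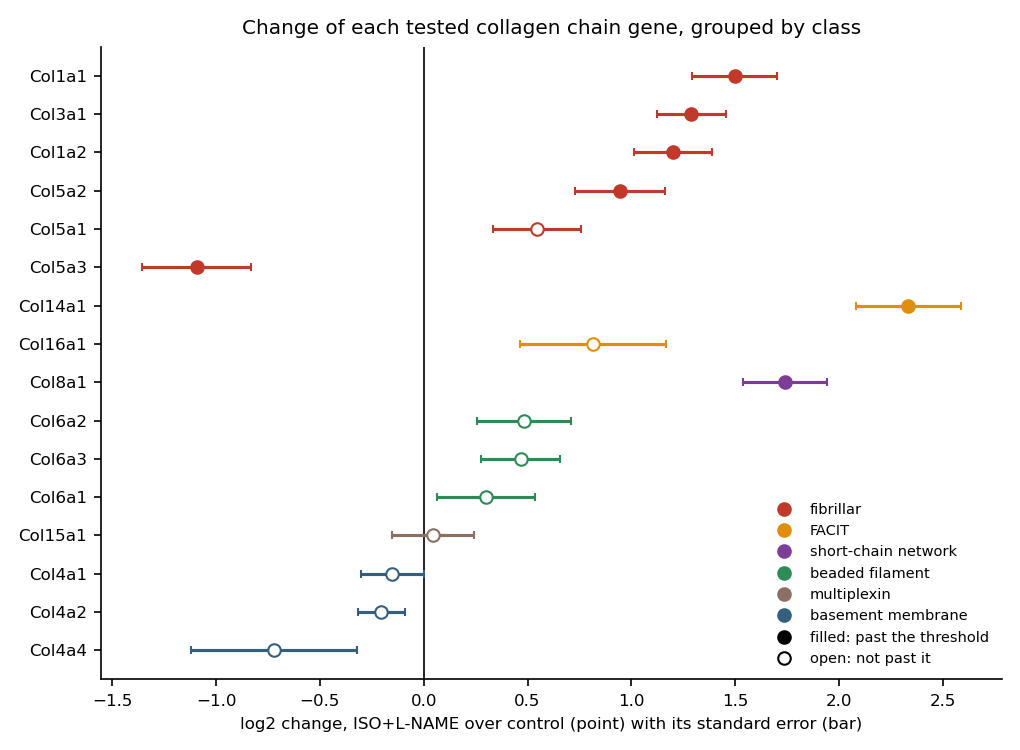
Log2 change of ISO+L-NAME over control for the 16 tested chains, 1 row per gene and 1 colour per class, with bars for the standard error and filled points for genes past the adjusted p threshold. Filled points lie at 0.94 to 2.33, apart from Col5a3 at -1.09, and the 3 tested basement membrane chains lie at -0.72 to -0.15 with open points.

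None of the 3 tested basement membrane chains was called, and each had a log2 difference below 0. As 6.10% of all tested genes were called, a class this short may hold no call. Col4a5, of the same class but under the filter, went the other way, with CPM overlapping between the groups. It had 51 counts over the ISO+L-NAME libraries and 18 over the control libraries. Col4a1 and Col4a2, which form the common type IV network, had 124, 131 and 138 CPM and 91.4, 97.5 and 90.5 CPM in ISO+L-NAME hearts, against 124, 117 and 195 CPM and 112, 101 and 109 CPM in control hearts. Col4a1 overlapped between the groups and control 3 was the highest of all, while Col4a2 was slightly lower in every treated library. The differences were -0.15 ± 0.15 for Col4a1 and -0.20 ± 0.11 for Col4a2 (edgeR adjusted p = 0.680 and 0.381). When libraries were scaled by their totals only, the median of all genes lay at 0.30 on the log2 scale and these differences turned to 0.14 and 0.10, still below that median. Col4a4, a chain of the specialised network known from kidney, had 13, 12 and 4 counts in ISO+L-NAME libraries and 11, 10 and 16 in control libraries, a difference of -0.72 ± 0.40 (edgeR adjusted p = 0.379).

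The beaded filament chains of type VI collagen, Col6a1, Col6a2 and Col6a3, assemble into 1 heterotrimer. They differed by 0.30 ± 0.24, 0.48 ± 0.23 and 0.47 ± 0.19 without a call (edgeR adjusted p = 0.582, 0.261 and 0.186). With 6.10% of all tested genes called, so short a class may hold no call. Col6a3 (ENSMUSG00000048126) had 33.2, 26.7 and 27.6 CPM in ISO+L-NAME hearts, against 23.3, 16.0 and 24.1 CPM in control hearts, with no overlap. The other two overlapped, and control 3 was within the treated range for both. Scaling by total counts alone called Col6a2 and Col6a3, and with them Col5a1 and Col16a1, so that 10 chains were called higher and 1 lower. The multiplexin Col15a1, a basement membrane zone collagen and the source of restin, had 40.9, 29.9 and 23.7 CPM in ISO+L-NAME hearts, against 33.8, 24.5 and 33.7 CPM in control hearts, a difference of 0.05 ± 0.20 (edgeR adjusted p = 0.947).

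The remaining 28 chains did not pass the filter, 8 of them with no count in any library and 20 with counts. The 8 without a count were Col2a1, Col24a1, Col9a1, Col19a1, Col6a4, Col6a5, Col10a1 and Col17a1, among them the cartilage fibril chain Col2a1 and the hypertrophic cartilage chain Col10a1. A count of 0 here says that the message was not detected at this depth. The fibrillar chain Col27a1 had 28, 12 and 8 counts in ISO+L-NAME libraries and 6, 7 and 7 in control libraries. Col4a5, a type IV chain encoded on the X chromosome, had 9, 17 and 25 counts in ISO+L-NAME libraries and 7, 5 and 6 in control libraries. Col6a6 had 4, 7 and 1 counts in ISO+L-NAME libraries and 6, 9 and 13 in control libraries. Raw counts of Col27a1 and Col4a5 were higher in each treated library than in each control, but their CPM overlapped between the groups, as the counts of Col6a6 did. A fit without the filter called none of these 3 (edgeR adjusted p = 0.291, 0.0969 and 0.0568). The multiplexin Col18a1, the source of endostatin, had 19 counts over the ISO+L-NAME libraries and 15 over the control libraries. Over the same groups Col23a1 had 6 ISO+L-NAME and 8 control counts, Col4a3 5 in each, Col13a1 7 ISO+L-NAME and 1 control, Col25a1 0 ISO+L-NAME and 5 control, and Col11a2 2 ISO+L-NAME and 7 control counts. The other 10, Col12a1, Col20a1, Col22a1, Col9a2, Col9a3, Col26a1, Col28a1, Col7a1, Col4a6 and Col11a1, had at most 3 counts in either group.

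Collagen messages as a whole took 0.162%, 0.105% and 0.119% of all counts in ISO+L-NAME libraries, against 0.0632%, 0.0487% and 0.0805% in control libraries. The groups did not overlap. Mitochondrial genes took 45.5 to 47.8% of all counts in ISO+L-NAME libraries and 53.6 to 56.7% in control libraries, also without overlap. Of the counts outside those genes, collagen messages took 0.202 to 0.297% in ISO+L-NAME libraries and 0.112 to 0.174% in control libraries. Summed by class, fibrillar chains were at 972, 559 and 672 CPM in ISO+L-NAME hearts, against 335, 253 and 398 CPM in control hearts. Basement membrane chains summed to 224, 241 and 240 CPM in ISO+L-NAME hearts, against 245, 226 and 316 CPM in control hearts, with overlap. Fibrillar chains were 57.3 to 68.6% of the collagen counts in ISO+L-NAME libraries and 44.2 to 47.4% in control libraries. Basement membrane chains were 15.8 to 24.7% in ISO+L-NAME libraries and 34.7 to 39.5% in control libraries. Short-chain network messages made up 3.40 to 4.91% in ISO+L-NAME libraries and 1.57 to 2.0% in control libraries, and FACIT messages 2.58 to 3.07% in ISO+L-NAME libraries and 1.12 to 1.68% in control libraries. These sums contain the genes called above and are given as a description.

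**Figure D3:**
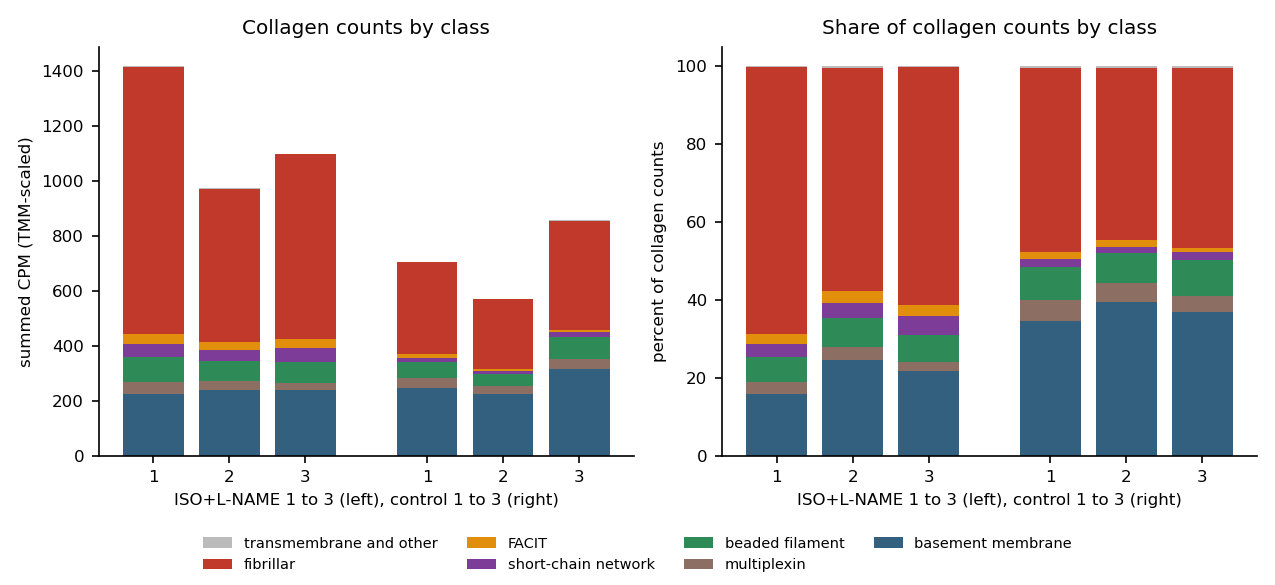
Collagen counts by class in each library, as summed TMM-scaled CPM (left panel) and as percent of all collagen counts (right panel), with ISO+L-NAME libraries 1 to 3 left of control libraries 1 to 3 in each panel. The fibrillar layer reaches 559 to 972 CPM in ISO+L-NAME libraries and 253 to 398 CPM in control libraries, while the basement membrane layer spans 224 to 241 CPM in ISO+L-NAME libraries and 226 to 316 CPM in control libraries.

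Chains that share a trimer or a fibre were also compared as ratios of their counts within a library, which do not depend on scaling between libraries. For 6 ratios the test was an exact two-sided permutation test over libraries, which cannot go below p = 0.1 with 3 against 3. Col5a3 over Col5a1 had the one ratio without overlap between groups, at 0.202, 0.589 and 0.205 in ISO+L-NAME libraries and 0.915, 1.10 and 0.837 in control libraries. The mean log2 ratio was -1.79 ± 0.89 in ISO+L-NAME libraries and -0.08 ± 0.20 in control libraries (SD, n = 3 each), a difference of -1.70 (exact permutation p = 0.1, 0.4 adjusted over the 6 ratios). ISO+L-NAME 2 lay nearer to the controls than the other treated libraries did. Col5a3 was already called lower from these same counts, so the ratio is no separate support for that call.

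The type I ratio, Col1a1 over Col1a2, was 0.50, 0.440 and 0.398 in ISO+L-NAME libraries and 0.391, 0.409 and 0.331 in control libraries. These overlapped, and the log2 ratio differed by 0.24 (exact permutation p = 0.2, 0.4 adjusted). Type I collagen is mostly made of a pair of α1 chains with 1 α2 chain, while the count of Col1a1 was below that of Col1a2 in each library. Counts of separate genes may be caught with unequal efficiency, so the ratio between groups is read here and not its level. For Col3a1 over Col1a1 the log2 ratio differed by -0.18, for Col4a1 over Col4a2 by 0.09, for Col5a1 over Col5a2 by -0.38 and for Col6a1 over Col6a2 by -0.24 (exact permutation p = 0.4, 0.8, 0.2 and 0.3, adjusted 0.48, 0.8, 0.4 and 0.45). All 4 overlapped between the groups.

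**Figure D4:**
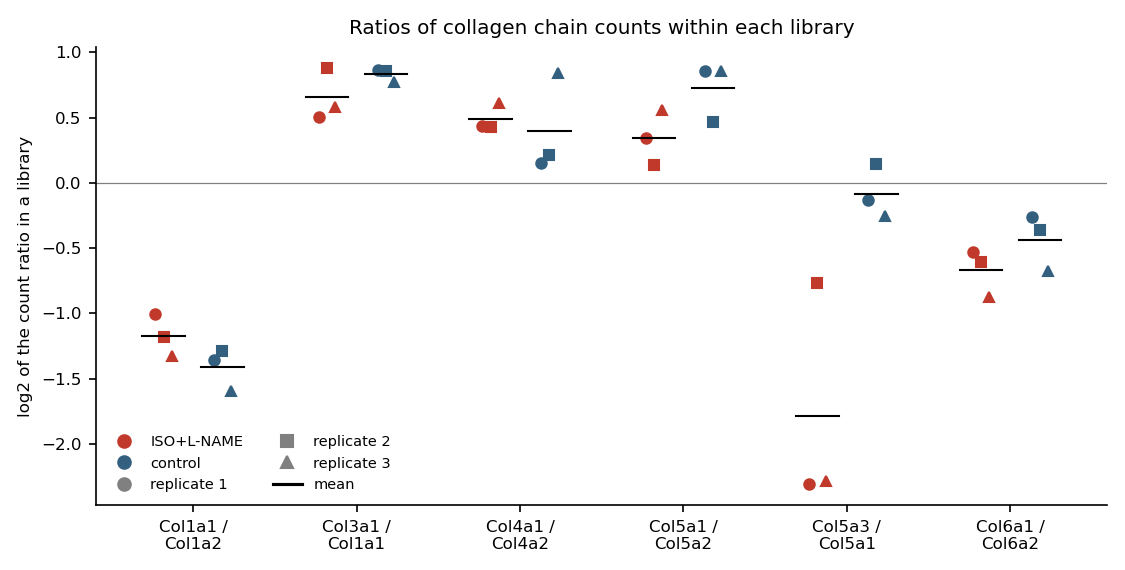
Log2 of the ratio of 2 chains' counts in each library for 6 chain pairs, with ISO+L-NAME (red) left of control (blue), 1 point per library and a line at the group mean. The Col5a3 over Col5a1 pair is the one without overlap, with means of -1.79 in ISO+L-NAME libraries and -0.08 in control libraries.

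Several of the chain genes are neighbours in the genome. Col3a1 and Col5a2, which both rose, lie tail to tail on GRCm39 chromosome 1 with 24.6 kb and 0 listed genes between them. Col4a1 and Col4a2 lie head to head on chromosome 8 and their listed regions share 22 bases at their starts, far from the 3′ ends that were sequenced. Whether counting used strand is not given in the sources used here. Col6a2 and Col6a1 lie 85.2 kb apart on the same strand of chromosome 10. Col4a4 and Col4a3 lie head to head, 71 bases apart, on chromosome 1.

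Upstream sequence was available from RefSeq on the build GRCm38.p6 for 13 of the 16 tested chain genes, and the 250 bases before the annotated start are shown for 4 whose window holds no annotated exon. They are 2 genes that rose (Col3a1 and Col8a1) and the type V chains whose count ratio is given above (Col5a3, which fell, and Col5a1, not called). Col1a1, Col5a2 and Col14a1 had no entry. Capitals mark matches, on either strand, to the letters TATAAA of a TATA box, to CCAAT of the box of that name, to GGGCGG of a GC box and to TGANTCA of an AP-1 site.
Col3a1: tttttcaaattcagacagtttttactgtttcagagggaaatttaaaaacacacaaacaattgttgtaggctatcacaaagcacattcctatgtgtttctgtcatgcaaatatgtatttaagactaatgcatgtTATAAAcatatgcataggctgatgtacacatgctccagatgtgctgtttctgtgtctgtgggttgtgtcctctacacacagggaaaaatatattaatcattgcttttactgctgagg
Col8a1: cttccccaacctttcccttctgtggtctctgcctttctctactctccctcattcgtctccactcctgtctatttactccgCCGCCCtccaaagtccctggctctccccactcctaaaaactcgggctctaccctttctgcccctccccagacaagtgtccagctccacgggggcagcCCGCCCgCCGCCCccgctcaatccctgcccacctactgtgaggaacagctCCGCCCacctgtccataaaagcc
Col5a3: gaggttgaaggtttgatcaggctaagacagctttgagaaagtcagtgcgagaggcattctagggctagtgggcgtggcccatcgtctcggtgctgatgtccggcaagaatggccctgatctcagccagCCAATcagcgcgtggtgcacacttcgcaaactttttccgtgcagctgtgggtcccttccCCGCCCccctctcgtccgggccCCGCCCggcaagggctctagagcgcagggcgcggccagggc
Col5a1: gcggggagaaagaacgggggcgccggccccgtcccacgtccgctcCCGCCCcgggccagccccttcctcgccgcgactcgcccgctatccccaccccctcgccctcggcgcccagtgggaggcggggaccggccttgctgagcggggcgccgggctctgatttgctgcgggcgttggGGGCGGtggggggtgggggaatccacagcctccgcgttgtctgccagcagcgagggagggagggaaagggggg
These windows lie at chr1:45311288-45311537 on the plus strand for Col3a1, chr16:57754738-57754987 on the minus strand for Col8a1, chr9:20815068-20815317 on the minus strand for Col5a3 and chr2:27886175-27886424 on the plus strand for Col5a1, each written 5′ to 3′ along its gene.

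The upstream windows differed in their letters. The Col3a1 window had a G and C content of 35.2% and 1 match, TATAAA at -117 to -112 from the start. The Col8a1 window, at 60.8% G and C, held 4 GGGCGG matches, and the Col5a1 window, at 76.4%, held 2. Col5a3, at 62.8%, held 2 GGGCGG matches and 1 CCAAT match at -122 to -118. Over all 32851 RefSeq windows of that length, 12.4% held the TATA box letters, 33.8% the CCAAT box, 32.7% the GC box and 6.75% the AP-1 letters. Among the 14 windows of tested chains, Col6a2 having a pair, 1 held the TATA box letters, 5 the CCAAT box, 8 the GC box and 1 the AP-1 letters. None of the 4 motifs was in both the Col3a1 and the Col8a1 window, and a match is a run of letters, not a bound site.

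Genes that fold, process, crosslink, bind or break down collagen were followed as a list of 61, of which 41 were tested. Of these, 10 rose, 0 fell and 31 were not called, where 3.41% of all tested genes rose and 2.68% fell. Of the 10, 3 (Lox, Mmp3 and Timp1) were under the filter's level in every control library and passed it through the ISO+L-NAME libraries, so they add no weight to the count. At the folding step, 0 of 16 tested genes were called, with a median of -0.10. As 6.10% of all tested genes were called, a list this short may hold no call. The collagen chaperone gene Serpinh1 had 45.5, 46.4 and 57.9 CPM in ISO+L-NAME hearts, against 56.6, 46.0 and 58.2 CPM in control hearts, a difference of -0.11 ± 0.14 (edgeR adjusted p = 0.774). The prolyl hydroxylase subunit gene P4hb and Mia3, which helps load collagen for export, differed by -0.08 ± 0.12 and -0.18 ± 0.13 (edgeR adjusted p = 0.807 and 0.556). On unadjusted library totals Serpinh1, P4hb and Mia3 turned to 0.19, 0.22 and 0.13 and remained uncalled.

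Of 9 tested crosslinking and fibril assembly genes, 5 rose, or 4 besides Lox, which passed the filter through the ISO+L-NAME libraries. Lox, the lysyl oxidase that starts collagen crosslinks, had 5.98, 5.50 and 6.21 CPM in ISO+L-NAME hearts, against 1.82, 1.00 and 0.963 CPM in control hearts (log2 2.17 ± 0.45, edgeR adjusted p = 0.00440). Its relative Loxl1 had a log2 change of 1.04 ± 0.21 (edgeR adjusted p = 0.00342), and the fibronectin gene Fn1 one of 1.32 ± 0.25 (0.00211). The small proteoglycan genes Bgn and Lum, whose products bind fibrils, were higher as well, Bgn by 1.04 ± 0.15 (edgeR adjusted p = 0.000106) and Lum by 1.00 ± 0.22 (0.00613). The related Dcn and the collagen-binding Sparc differed by 0.29 ± 0.12 and 0.37 ± 0.13 without a call (edgeR adjusted p = 0.211 and 0.112), though total counts alone called both.

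At the propeptide step, 1 of 4 tested genes rose, Adamts2, the procollagen N-proteinase, by 1.10 ± 0.27 (edgeR adjusted p = 0.0162). That call was lost without control 1, control 2 or ISO+L-NAME 1 (edgeR adjusted p = 0.0829, 0.0888 and 0.0897). Of the collagen receptor genes, 0 of 5 tested were called, among them the integrin β1 gene Itgb1 at 0.05 ± 0.10 (edgeR adjusted p = 0.887). With 6.10% of all tested genes called, 0 of 5 is near that share. Of 7 tested breakdown genes and inhibitors, 4 rose, of which Timp1 and Mmp3 passed the filter through the ISO+L-NAME libraries. The metalloproteinase inhibitor genes Timp1, Timp2 and Timp3 were higher, Timp1 by 4.57 ± 0.52 (edgeR adjusted p = 1.08e-05), Timp2 by 0.64 ± 0.14 (0.00871) and Timp3 by 0.59 ± 0.15 (0.0228). Timp1 had 57, 32 and 75 counts in ISO+L-NAME libraries and 0, 1 and 4 in control libraries, and its log2 change was 6.13 without control 3 and 3.98 without control 1. The inhibitor gene Timp4 was not called, with a log2 difference of -0.40 ± 0.28 (edgeR adjusted p = 0.504). Mmp3, the stromelysin gene, rose by 1.54 ± 0.45 (edgeR adjusted p = 0.0449). Mmp3 rested on 13, 21 and 12 counts in ISO+L-NAME libraries and 4, 5 and 3 in control libraries. Its call was lost in 5 of the 6 fits without 1 library, with DESeq2 (adjusted p = 0.196) and with limma-voom (adjusted p = 0.111). Timp2 lost its call without ISO+L-NAME 2 (edgeR adjusted p = 0.0529), and Timp3 in 4 of those 6 fits and with the robust fit.

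**Figure D5:**
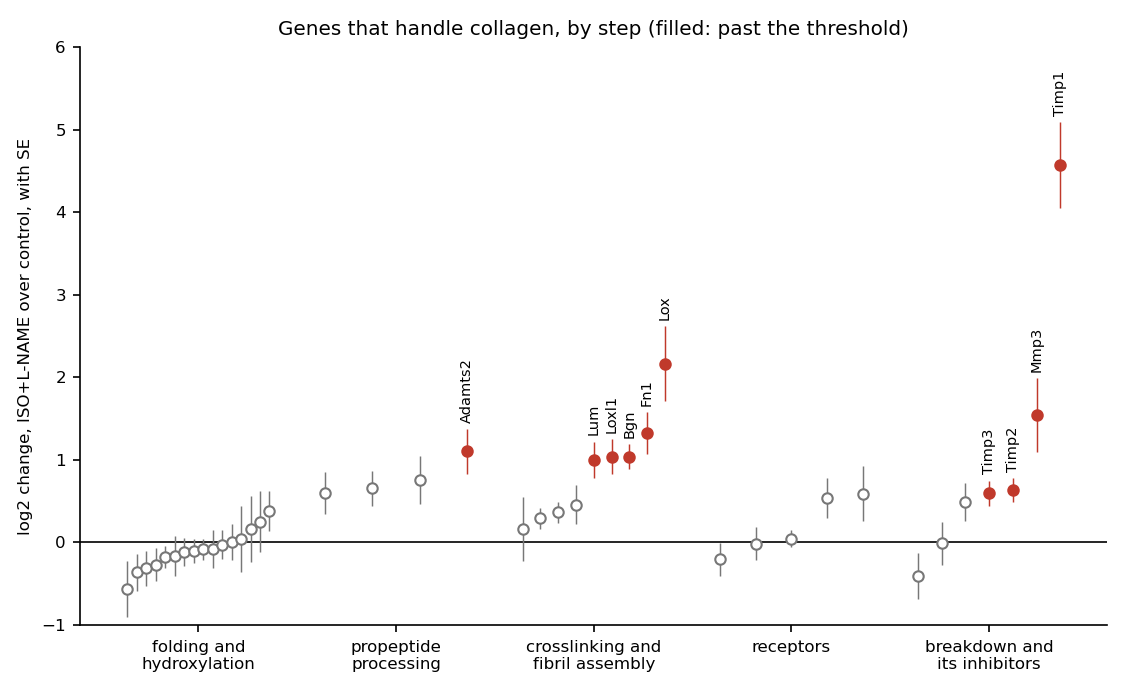
Log2 change of ISO+L-NAME over control, with its standard error, for the 41 tested genes that handle collagen, arranged by step and by size within a step, filled and named where past the adjusted p threshold. The folding step has 16 open points around 0, and the 10 filled points lie at 0.59 to 4.57 in the propeptide, crosslinking and breakdown steps.

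Fibroblast and macrophage markers were counted beside these results. For comparison with their counts, 3.41% of all tested genes rose and 2.68% fell. Of 9 activated fibroblast markers, 7 were tested, 6 rose and 0 fell, but 2 of the 6 reached the filter's level in all 3 control libraries, and Cilp and Thbs4 reached it in none. The summed level of the 9 was 197 to 294 CPM in ISO+L-NAME hearts and 74.1 to 135 CPM in control hearts. Acta2 alone held 137, 112 and 145 CPM of it in ISO+L-NAME hearts and 102, 51.0 and 102 CPM in control hearts. Cthrc1 and Comp had too few counts to be tested. For 9 general fibroblast markers, 8 tested, 3 rose and 0 fell, and the sum without Col15a1 was 1020 to 1183 CPM in ISO+L-NAME hearts and 735 to 1009 CPM in control hearts. Lum and Dcn stand both in that list and among the crosslinking and assembly genes, and Fn1 stands also among the activated markers. Of 9 macrophage markers, 6 rose and 0 fell, with Cd68 and Lgals3 under the filter's level in every control library, and the sums were 346 to 423 CPM in ISO+L-NAME hearts and 160 to 208 CPM in control hearts. Their part in the collagen differences was not tested.

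Endothelial cells and mural cells make type IV collagen. The counts of their markers stand beside the same shares of all tested genes, 3.41% higher and 2.68% lower. Of 9 tested endothelial markers, 0 rose and 1 fell, with sums of 1442 to 1497 CPM in ISO+L-NAME hearts and 1631 to 1836 CPM in control hearts. Of 7 tested smooth muscle and pericyte markers, 0 rose and 1 fell, with sums of 401 to 489 CPM in ISO+L-NAME hearts and 468 to 548 CPM in control hearts. For type IV, as for the fibrillar chains, the part of these markers was not tested. Cartilage-type markers were mostly absent, with Acan, Chad, Matn3 and Hapln1 at 0 counts in all 6 libraries and Sox9 alone tested (higher by 2.16 ± 0.33, edgeR adjusted p = 0.000199). Of 5 adipocyte and 4 epithelial markers, 0 were tested, and Adipoq, Plin1, Lep, Krt5 and Krt14 had no count. Mesothelial markers, 0 of 5 tested, summed to 1.33 to 2.72 CPM in ISO+L-NAME hearts and 5.0 to 14.9 CPM in control hearts. Of 6 Schwann cell markers 1 was tested and fell, with sums of 5.11 to 10.1 CPM in ISO+L-NAME hearts and 13.7 to 17.5 CPM in control hearts.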

How the data were processed

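Per the labels' protocols, RNA from mouse hearts was isolated with Trizol and made into libraries with a QuantSeq forward 3′ mRNA kit. The authors deposited whole-number counts for each gene and library, per the file headers. A further signal headed CPM is deposited too; each of its columns equals the counts times 1 constant, and it was not used. Among tools and builds, bcl2fastq and GRCm39 appear in the submitters' processing notes. The aligner, the counter and the use of molecular identifiers or strand: not given in the sources used here.

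Tests used edgeR 4.0.16 (R 4.3.3), with its filterByExpr defaults of a count of 10 and a total of 15, TMM factors, and glmQLFit with group as the single term. Of 25361 genes, 8531 were tested. Each SE was obtained from the log2 change and the F statistic. Count ratios, sums, promoter matches and exact permutation tests used Python 3.11.15. The gene test was checked on simulated counts. Bounds cover counting error in the control group only. Between libraries of a group the chi-square per degree of freedom was 2.10 to 3.42, so none was another library merely sequenced again. The check cannot tell whether libraries were made from the same heart or RNA. Upstream sequence is RefSeq's, on GRCm38.p6, and no coordinate was moved between builds.

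The members and lists were chosen with earlier results of these data known. Every tested chain gene is named, as are the list genes past the threshold and 6 others with the highest mean CPM. Timp4 was named outside this rule, beside the other Timp genes. As alternatives, the scaling was changed (RLE, or totals alone), the filter was removed or set to a mean of 5 CPM, mitochondrial genes were dropped, and the fit was made robust or replaced by DESeq2 1.42.0 or limma-voom (limma 3.58.1). Replicate number was tried as a block, and each library was left out once.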

Additional observations from a re-analysis of the deposited data

How the results depend on the processing

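The count of collagen chains that changed was 7, of which 6 rose, and lay between 5 and 8 in all alternatives except total counts alone, which called 11 (10 higher, 1 lower). Without 1 library it was 5 to 8. Total counts alone called 1479 of all genes, against 520, and 19 of the genes that handle collagen, against 10, and placed the median log2 change of all genes at 0.30. DESeq2 called 335 of all genes. Without 1 library, 294 to 479 of all genes and 7 to 10 of the genes that handle collagen were called. The lowest of all, 294, came without control 1. Among 477 log2 changes of 32 named genes under the alternatives, 468 kept their direction. The reversed ones were all uncalled: Col4a1 (0.14), Col4a2 (0.10), P4hb (0.22), Mia3 (0.13) and Serpinh1 (0.19) with total counts alone, and 4 values with 1 library left out. Over those fits Col4a1 ran from -0.29 (without control 2) to 0.12 (without control 3), Col15a1 from -0.20 (without ISO+L-NAME 1) to 0.21 (without ISO+L-NAME 3), Itgb1 from -0.0014 (without ISO+L-NAME 1) to 0.072 (without ISO+L-NAME 3), and the log2 ratio of Col4a1 to Col4a2, 0.09 with all libraries, from -0.035 (without control 1) to 0.31 (without control 3). The other ratios kept their sign, as did all 6 with 0.5 added to each count. The collagen share averaged 0.129% in ISO+L-NAME libraries and 0.0641% in control libraries, or 0.242% and 0.142% when mitochondrial genes were left out of the total. Correlations of deviations were -0.03 to 0.06 for same-numbered libraries and -0.07 to 0.08 for the other pairs. With 3 libraries in each group these values cannot exclude a pairing. With the replicate block, 7 chains and 560 of all genes were called, and Sparc was also called (edgeR adjusted p = 0.0481). Depth limits the chains with few counts: 20 chains with counts were not tested. The bound for Col8a2 without 1 library, 2.86-fold to 7.11-fold, was computed after seeing the data.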
